A study of Mus musculus with 46 samples.

Results

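The interferon regulatory factors (IRFs) are a family of transcription factors that share a DNA-binding domain and control the interferon genes and the genes that respond to interferon. The rows of Irf1, Irf2, Irf3, Irf4, Irf5, Irf7, Irf8 and Irf9 were taken by symbol from 3 tables of FPKM values, that is, fragments scaled by gene length and library size, so that levels can be set side by side between genes. All 8 genes were listed in the table of the LPS experiment (of 15285 genes) and of the GLOBAL experiment (of 19930 genes), and 7 of the 8 in the table of subventricular zone (SVZ) tissue (of 15695 genes), where Irf4 was not listed. Every listed member passed the limit for testing, an FPKM of at least 1 in at least 3 libraries of its table, but Irf4 in the LPS experiment passed through libraries of 0 hr alone, and Irf5 and Irf8 in SVZ tissue passed mainly through control libraries, so these genes are left out of the counts of members that fell in those experiments, and their tests are given from a fit of every listed gene.

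The study fed mice PLX3397, an inhibitor of the CSF1 receptor on which microglia depend, at 600 ppm in chow, and followed the return of brain myeloid cells after the inhibitor was withdrawn. The mice were male C57BL/6 and, by the figure legends, 2 months old, while the methods give 1.5 months as the age used where none is indicated. The LPS experiment holds 24 libraries of CD11b+CD45int cells, the gate used for microglia, sorted from brain hemispheres: control microglia of mice without inhibitor, and WM repopulating cells of mice given PLX3397 for 14 days and 28 days of recovery. Cells of both kinds were collected without lipopolysaccharide (0 hr; n = 3 control and n = 4 WM libraries) and at 6 hr (n = 5 and n = 4) or 24 hr (n = 4 and n = 4) after an injection of LPS at 0.33 mg/kg. The GLOBAL experiment holds the same sorted fraction in 4 control libraries and in 3 libraries of mice given PLX3397 for 7 days and 28 days of recovery, with no LPS. The SVZ experiment holds microdissected tissue of mice without inhibitor (control), of mice fed it for 14 days (14 day PLX3397) and of mice so treated and then left for 5 days (5 day recovery), with n = 5 libraries each. WM and GLOBAL are the study's names for the repopulation that followed these treatments, and the sorted fraction is a gate and not a single cell type.

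Microglia detect LPS through Toll-like receptor 4, whose adaptors switch on kinases that phosphorylate IRF3, IRF5 and IRF7. The interferon made in response signals through its receptor and the JAK kinases to STAT factors, which join IRF9 to form the factor ISGF3. ISGF3 binds response elements in the promoters of interferon-stimulated genes, among them Irf7, which then adds to the interferon response. IRF1 is induced by interferon-gamma and IRF2 competes with it for the same sites, whereas IRF8 and IRF4 work with partners such as PU.1 (Spi1), and IRF8 is needed for the development of microglia.

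The stretch before the start of transcription of the members that rose, Irf7, Irf9 and Irf2, and of Irf8, which fell, is shown because these genes moved in the same direction at 6 hr in both kinds of cells. RefSeq windows of GRCm38.p6, which run from 250 bases before to 50 after a start, were found for all 8 members (11 windows). The 250 bases before the start follow, 5′ to 3′ on the strand of the gene, with matches to the searched motifs in capitals. The windows are chr7:141266425-141266674 for Irf7 (minus strand), chr14:55603735-55603984 for the first window of Irf9, chr8:46739495-46739744 for Irf2 and chr8:120736108-120736357 for the first window of Irf8 (plus strand).
Irf7: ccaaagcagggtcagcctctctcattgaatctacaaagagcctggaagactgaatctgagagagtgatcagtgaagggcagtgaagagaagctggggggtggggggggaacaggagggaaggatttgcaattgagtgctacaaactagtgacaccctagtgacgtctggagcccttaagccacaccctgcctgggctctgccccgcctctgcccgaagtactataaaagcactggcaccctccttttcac
Irf9: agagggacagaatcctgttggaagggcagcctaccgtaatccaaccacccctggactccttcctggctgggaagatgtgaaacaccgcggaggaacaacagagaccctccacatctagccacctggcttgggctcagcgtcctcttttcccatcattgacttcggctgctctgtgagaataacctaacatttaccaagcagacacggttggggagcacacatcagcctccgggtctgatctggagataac
Irf2: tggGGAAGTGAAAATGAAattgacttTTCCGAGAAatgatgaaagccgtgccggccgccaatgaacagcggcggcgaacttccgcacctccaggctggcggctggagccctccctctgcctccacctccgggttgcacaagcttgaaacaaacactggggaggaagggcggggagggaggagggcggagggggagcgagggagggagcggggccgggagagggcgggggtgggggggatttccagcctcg
Irf8: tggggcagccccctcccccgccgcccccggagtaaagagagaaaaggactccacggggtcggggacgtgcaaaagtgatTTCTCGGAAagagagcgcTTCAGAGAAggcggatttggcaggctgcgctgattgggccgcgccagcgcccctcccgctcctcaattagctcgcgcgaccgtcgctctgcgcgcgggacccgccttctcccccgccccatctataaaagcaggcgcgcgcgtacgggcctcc

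Both strands were searched for the core of the interferon-stimulated response element (ISRE, GAAANNGAA), the gamma-activated site bound by STAT factors (TTCNNNGAA), a kappa-B-like site (GGGANTTTC) and an ETS-IRF composite site (GGAANNGAA). Among all 32851 windows, 8.56% held the ISRE core, 8.30% the gamma-activated site, 1.11% the kappa-B-like site and 8.24% the composite site. The window of Irf2 held an ISRE core (GAAAATGAA, first base at position -241 from the start), a composite site that shares 3 bases with it (GGAAGTGAA, position -247) and a gamma-activated site (TTCCGAGAA, position -224). The first window of Irf8 held 2 gamma-activated sites (TTCTCGGAA and TTCAGAGAA, positions -171 and -153), and that of Irf1 a single such site (TTCCCCGAA, position -90). The windows of Irf3, Irf4, Irf5, Irf7 and Irf9 held none of the letters searched, which says only that they are not in these windows. These matches are a description of the letters and not of bound sites.

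In sorted cells without LPS, Irf8 and Irf5 were the members with the highest levels and Irf7 and Irf4 those with the lowest. In control microglia at 0 hr the mean FPKM was 266 ± 24.3 (SD, n = 3) for Irf8, 165 ± 30.9 for Irf5, 56.7 ± 6.82 for Irf3, 36.9 ± 1.99 for Irf1, 36.5 ± 7.17 for Irf9, 35.2 ± 1.06 for Irf2, 8.24 ± 5.04 for Irf7 and 1.95 ± 0.786 for Irf4. Irf1, Irf9 and Irf2 overlapped among themselves, and the other neighbours in this order did not overlap. WM repopulating cells at 0 hr had the same order but for Irf9 and Irf1, whose libraries overlapped. At 6 hr after LPS, Irf7 was the highest member in both kinds of cells, with every library above those of the next member: its lowest FPKM was 184 in control microglia, where the highest of Irf5 was 160.2, and 222 in WM repopulating cells, where the highest of Irf8 was 195. Of the summed mean FPKM of the 8 members in control microglia, Irf7 made up 1.36% at 0 hr, 35.5% at 6 hr and 13.5% at 24 hr, and Irf8 43.8%, 17.9% and 31.3%. At 24 hr Irf8 had the highest mean again, overlapping with Irf5 in control microglia but not in WM repopulating cells.

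**Figure D1:**
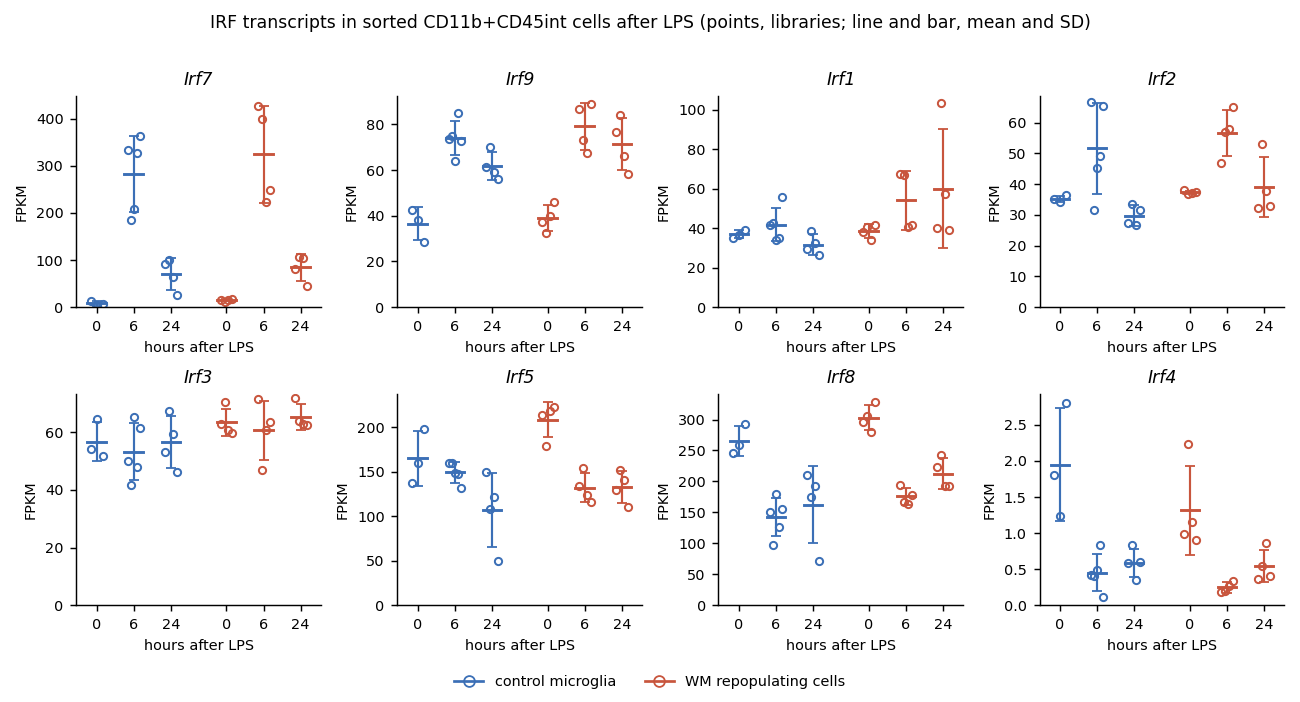
FPKM of the 8 IRF genes in sorted cells at 0, 6 and 24 hr after LPS, with a point for each library and the mean and SD of each group, each panel on its own axis from 0. Irf7 rose from at most 16.98 at 0 hr to at least 184 at 6 hr, whereas Irf8 and Irf4 were lower in every library after LPS than in every library of the same kind of cell at 0 hr.

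At 6 hr after LPS, Irf7, Irf9 and Irf2 rose and Irf8 fell, in control microglia and in WM repopulating cells, and Irf5 fell in WM repopulating cells. Changes were tested with limma on log2(FPKM + 1) over all genes of the table and called at a Benjamini-Hochberg adjusted p under 0.05. Irf4 is left out of the counts that follow. In control microglia at 6 hr, 3 of the other 7 members rose and 1 fell, where 42.5% of all genes tested were called in either direction. In WM repopulating cells at 6 hr, 3 rose and 2 fell, where 38.8% of all genes were called. At 24 hr, 2 rose and 2 fell in control microglia (21.3% of all genes called), and 2 rose and 1 fell in WM repopulating cells (18.8%). From 6 to 24 hr, 3 members fell in control microglia (28.3%) and 2 in WM repopulating cells (15.7%), and none rose.

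**Figure D2:**
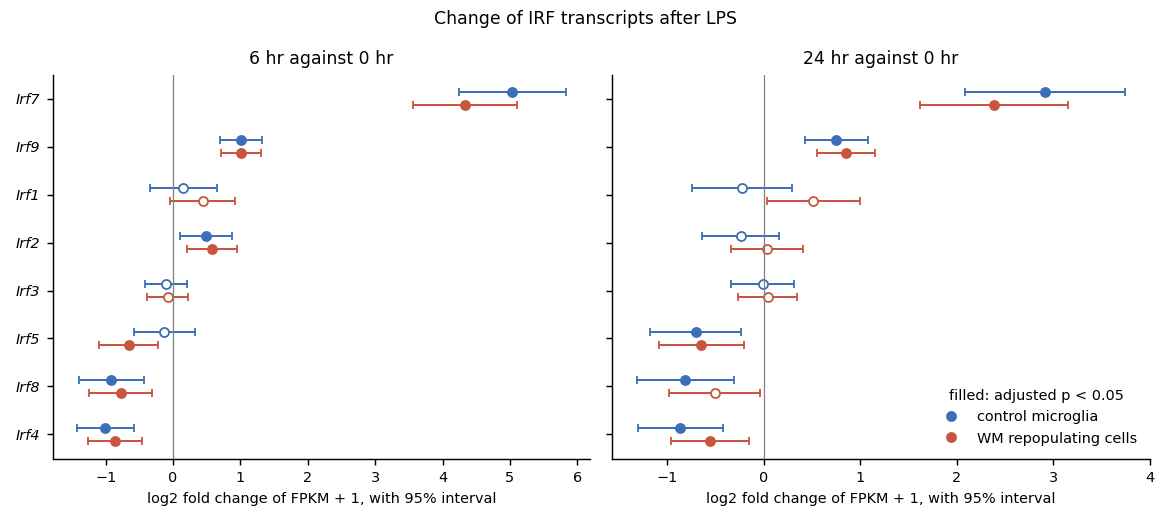
Log2 fold change of FPKM + 1 against 0 hr with its 95% interval for each IRF gene at 6 hr (left) and 24 hr (right), in control microglia (blue) and WM repopulating cells (red), with filled points for an adjusted p under 0.05, from which nothing is read for Irf4. Irf7 stands at 5.04 and 4.34 at 6 hr and no other member rises above 1.01.

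Irf7, the IRF that amplifies the type I interferon response, changed most. In control microglia its FPKM was 13.7, 3.75 and 7.29 at 0 hr, 333, 184, 208, 326 and 363 at 6 hr, and 90.9, 99.5, 64.7 and 24.8 at 24 hr. In WM repopulating cells it was 14.7, 11.8, 14.8 and 16.98 at 0 hr, 426, 399.7, 222 and 249.5 at 6 hr, and 81.7, 107, 104 and 45.0 at 24 hr. The 3 times did not overlap in either kind of cell. The mean rose 34.3-fold in control microglia at 6 hr (log2 fold change 5.04, SE 0.38, limma adjusted p = 5.78e-10) and 22.2-fold in WM repopulating cells (4.34, SE 0.37, adjusted p = 3.59e-09). At 24 hr it was still raised, by 2.92 (SE 0.40, adjusted p = 1.51e-05) and 2.39 (SE 0.37, adjusted p = 6.76e-05) on the log2 scale, after a fall from 6 hr by 2.12 (SE 0.35, adjusted p = 9.09e-05) and by 1.95 (SE 0.37, adjusted p = 0.000832). The response at 6 hr was smaller in WM repopulating cells by 0.70 (SE 0.54, 95% interval of the interaction -1.81 to 0.41), which did not pass the test (adjusted p = 0.807). Without replicate 1 of control microglia at 0 hr this difference was -1.11 and without replicate 2 it was -0.30 (adjusted p = 0.781 and 0.953).

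The summed FPKM of 7 monocyte markers moved with Irf7, and 5 of the 6 counted rose at 6 hr in both kinds of cells, Vcan being left out because it passed the limit for testing mainly through libraries of that time. The sum ranged from 103 to 330.5 in control microglia at 0 hr, from 1239 to 2388 at 6 hr and from 437 to 557 at 24 hr, and from 125 to 393, 1226 to 3338 and 139 to 687 in WM repopulating cells. The control library with the highest Irf7 at 0 hr, replicate 1, also had the highest monocyte sum of its group (330.5) and the highest sum of 9 neutrophil markers (9015, against 1836 and 5684). Over time the neutrophil sum did not move with Irf7. Its median was 5684 at 0 hr, 2109 at 6 hr and 9018 at 24 hr in control microglia, and 4373, 767 and 3913 in WM repopulating cells. The part of these cells in the level of Irf7 was not tested.

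Irf9, the DNA-binding subunit of ISGF3, rose 2.03-fold at 6 hr in both kinds of cells. Its FPKM in control microglia was 42.7, 38.2 and 28.7 at 0 hr, 73.5, 75.0, 64.1, 84.8 and 72.6 at 6 hr, and 61.4, 70.2, 58.9 and 55.9 at 24 hr. In WM repopulating cells it was 37.1, 32.3, 40.1 and 46.1 at 0 hr, 86.7, 73.1, 67.4 and 89.0 at 6 hr, and 76.6, 84.0, 66.1 and 58.2 at 24 hr. Every library after LPS was above every library at 0 hr, and the libraries of 6 and 24 hr overlapped. The log2 fold change at 6 hr was 1.01 in both (SE 0.15 and 0.14, limma adjusted p = 7.91e-06 and 6.74e-06), and at 24 hr 0.75 (SE 0.16, adjusted p = 0.00125) and 0.85 (SE 0.14, adjusted p = 0.000179). The fall from 6 to 24 hr was not called in either kind of cell.

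Irf2, which shares its sites with IRF1 and can repress them, rose at 6 hr and fell again by 24 hr. In control microglia its FPKM was 35.2, 34.2 and 36.3 at 0 hr, 66.8, 31.7, 45.1, 49.3 and 65.3 at 6 hr, and 27.4, 33.6, 26.6 and 31.6 at 24 hr. In WM repopulating cells it was 38.0, 36.9, 37.0 and 37.5 at 0 hr, 46.8, 57.0, 57.9 and 65.0 at 6 hr, and 32.3, 53.0, 37.9 and 33.0 at 24 hr. The libraries of 0 and 6 hr did not overlap in WM repopulating cells, whereas replicate 2 of control microglia at 6 hr lay below 0 hr. The rise at 6 hr was 0.58 (SE 0.18, limma adjusted p = 0.0138) in WM repopulating cells and 0.49 (SE 0.19, adjusted p = 0.0381) in control microglia, and the fall from 6 to 24 hr was 0.73 (log2 fold change -0.73, SE 0.17, adjusted p = 0.00243) in control microglia and 0.54 (-0.54, SE 0.18, adjusted p = 0.0430) in WM repopulating cells. The rise in control microglia lost its call without any of 6 libraries (replicates 1, 2 and 3 at 0 hr and 1, 4 and 5 at 6 hr; adjusted p from 0.0544 to 0.104), and the fall in WM repopulating cells without any of 6 (replicates 2, 3 and 4 at 6 hr and 1, 3 and 4 at 24 hr; adjusted p from 0.0847 to 0.129). That fall also lost its call with quantile normalization, without the variance trend and with the replicate block. Over all settings the limma adjusted p of the rise in control microglia reached 0.145.

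Irf8, a lineage factor of microglia and the member with the highest level without LPS, fell at 6 hr in both kinds of cells. Its FPKM in control microglia was 246, 259 and 293 at 0 hr, 151, 98.3, 180.2, 127 and 156 at 6 hr, and 211, 175, 192 and 72.0 at 24 hr. In WM repopulating cells it was 296, 305, 281 and 329 at 0 hr, 195, 167, 163 and 179 at 6 hr, and 224, 242, 193 and 192 at 24 hr. Every library after LPS was below every library at 0 hr. The log2 fold change at 6 hr was -0.92 (SE 0.23, limma adjusted p = 0.00266) in control microglia and -0.78 (SE 0.23, adjusted p = 0.00843) in WM repopulating cells. At 24 hr it was -0.81 (SE 0.24, adjusted p = 0.0196) in control microglia, a call that was lost without replicate 3 of 0 hr (-0.74, adjusted p = 0.0790), and -0.51 (SE 0.23, adjusted p = 0.122) in WM repopulating cells, which did not pass the test but did with only the groups compared in the fit (adjusted p = 0.00574). In that fit the value of control microglia missed the threshold (adjusted p = 0.119).

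Irf5, which acts below the Toll-like receptors, was lower in WM repopulating cells at both times. Its FPKM there was 214, 179, 219 and 223 at 0 hr, 134, 154, 124 and 116 at 6 hr, and 129, 152, 141 and 111 at 24 hr, with no overlap between 0 hr and either time. The log2 fold change was -0.66 (SE 0.21, limma adjusted p = 0.0165) at 6 hr and -0.65 (SE 0.21, adjusted p = 0.0340) at 24 hr, the latter lost without any of 6 libraries (replicates 1, 3 and 4 of either time; adjusted p from 0.0542 to 0.102). In control microglia the FPKM was 137, 160.2 and 199 at 0 hr, 160.2, 160.02, 149, 148 and 132 at 6 hr, and 149, 108, 122 and 50.1 at 24 hr. These groups overlapped, and at 6 hr Irf5 stood at -0.13 against 0 hr (SE 0.22, limma adjusted p = 0.668). The 6 hr change in WM repopulating cells differed from it by -0.53 (SE 0.30, 95% interval -1.16 to 0.10), which did not pass the test of the interaction (adjusted p = 0.744).

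In control microglia at 24 hr, Irf5 was called against 0 hr (-0.71, SE 0.23, limma adjusted p = 0.0295) and against 6 hr (-0.58, SE 0.20, adjusted p = 0.0342), and both calls rest on replicate 4. This library held the lowest Irf5, Irf7 and Irf8 of its group and the lowest sum of the 15 microglia markers (16358, against 22950 to 25596 in the other 3 libraries). Without it Irf5 stood at -0.38 against 0 hr (adjusted p = 0.0859) and -0.25 against 6 hr (adjusted p = 0.188), Irf8 stood at -0.46 against 0 hr (adjusted p = 0.0480) and passed the test from 6 to 24 hr as a rise of 0.46 (adjusted p = 0.0210; 0.11 and adjusted p = 0.748 with it), and Irf7 stood at 3.35 against 0 hr (adjusted p = 1.26e-06). The Irf5 call against 0 hr was also lost without replicates 2 or 3 of 0 hr (adjusted p = 0.0682 and 0.146), and that against 6 hr without replicates 1, 2 or 4 of 6 hr (adjusted p = 0.0650, 0.0610 and 0.0542).

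Of the 15 microglia markers, 11 fell at 6 hr in each kind of cell, and their summed FPKM went from between 30639 and 35942 to between 13995 and 16485 in control microglia and from between 31749 and 37222 to between 15579 and 18382 in WM repopulating cells. Irf8 fell beside these markers in both kinds of cells at 6 hr, and Irf5 in WM repopulating cells, and the part of the markers' cells in these levels was not tested. Fewer cells of a type and less RNA per cell cannot be told apart in such libraries.

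Irf4, which serves lymphocytes and dendritic cells, was near the lower limit of these libraries, with 3 to 84 reads. Its FPKM in control microglia was 1.81, 1.24 and 2.79 at 0 hr, 0.421, 0.401, 0.491, 0.833 and 0.122 at 6 hr, and 0.586, 0.830, 0.352 and 0.595 at 24 hr. In WM repopulating cells it was 0.984, 2.23, 1.15 and 0.904 at 0 hr, 0.192, 0.198, 0.265 and 0.344 at 6 hr, and 0.370, 0.542, 0.865 and 0.411 at 24 hr. Every library after LPS was below every library at 0 hr. Since Irf4 passed the limit for testing through the 0 hr libraries alone, its test is taken from the fit of every gene listed, without that limit. The log2 fold change on the FPKM + 1 scale, which understates the change of so low a gene, was -1.004 (SE 0.18, limma adjusted p = 0.00015) and -0.86 (SE 0.18, adjusted p = 0.000616) at 6 hr and -0.87 (SE 0.19, adjusted p = 0.0028) and -0.56 (SE 0.18, adjusted p = 0.0351) at 24 hr, in control and WM cells. With the limit, the value at 24 hr missed the threshold in control microglia without replicate 3 of 0 hr (-0.67, adjusted p = 0.0508), and in WM repopulating cells without any of 5 libraries (replicates 2 and 3 of 0 hr and 1, 2 and 4 of 24 hr; adjusted p from 0.0705 to 0.190).

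Beside Irf4, the summed level of 7 dendritic cell markers was lower after LPS, although of the 4 counted in control microglia at 6 hr, with Zbtb46 left out like Vcan, 1 rose and 1 fell. The summed FPKM was between 17.9 and 44.3 in control microglia at 0 hr, 4.13 and 19.3 at 6 hr and 4.12 and 6.27 at 24 hr, and between 25.1 and 48.1, 6.88 and 8.38, and 3.66 and 6.03 in WM repopulating cells. Most of the sum at 0 hr came from Cd209a, a lectin of monocyte-derived dendritic cells (26.7 ± 12.2 in control microglia, n = 3), whereas Clec9a was listed at 0 in 2 of the 3 control libraries. The sum of lymphocyte and NK cell markers overlapped between 0 hr and both later times. It was 56.8 to 86.6 FPKM at 0 hr, 21.1 to 70.1 at 6 hr and 39.7 to 65.3 at 24 hr in control microglia. In WM repopulating cells it was 44.3 to 74.2, 38.3 to 56.4 and 22.2 to 54.1. The part of dendritic cells, lymphocytes and NK cells in the level of Irf4 was not tested.

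Irf1 and Irf3 were called in none of the comparisons between times in the LPS experiment. Irf3, which is made at all times and activated by phosphorylation, had group means between 53.2 and 65.2 FPKM and libraries between 41.8 and 71.7. Irf1, an early target of interferon-gamma, had an FPKM between 33.8 and 41.6 in the 7 libraries of 0 hr. At 6 hr it was 41.8, 42.4, 34.2, 35.2 and 55.5 in control microglia and 67.3, 66.6, 40.7 and 41.4 in WM repopulating cells, and at 24 hr 29.2, 38.6, 32.6 and 26.3 and 39.9, 103, 57.3 and 39.2. The WM libraries with the most Irf1 at 6 hr, replicates 1 and 2, were also those with the most Irf7, and replicate 2 of 24 hr held the highest Irf1 of all 24 libraries. Samples were collected at 6 hr or later, so an earlier change of Irf1 lies outside these data.

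Where WM cells were set against control microglia, no member was called in the fit of all libraries without a replicate block, and Irf1 was called at 24 hr with that block. At 0 hr, 0 of 8 members were called (1.21% of all genes called; 1 member, Irf7, with an unadjusted p under 0.05 in limma). At 6 hr, 0 of 8 were called (0.323%; 0 members unadjusted), and at 24 hr 0 of 8 (3.97%; 2 members unadjusted, Irf1 and Irf8). The interaction terms of the same fit, which compare the responses to LPS, called 0 of 8 members at 6 hr (0.0237%; 0 unadjusted), 0 of 8 at 24 hr (0.0867%; 1 unadjusted, Irf1) and 0 of 8 from 6 to 24 hr (0.158%; 0 unadjusted). A missed threshold does not show that the cells were alike, and the intervals are wide for several members.

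Irf1 at 24 hr had the lowest adjusted p of the members in these comparisons, and there every WM library (39.2 to 103 FPKM) was above every control library (26.3 to 38.6). Of all genes tested, 12.1% did not overlap between these groups. The difference of Irf1 was 0.80 on the log2 scale (SE 0.23, 95% interval 0.32 to 1.28, limma adjusted p = 0.0525). It passed the test without replicates 1 or 4 of the WM cells at 24 hr (0.95 and 0.96, adjusted p = 0.0290 and 0.0284) and with the replicate number as a block (0.80, adjusted p = 0.0291), and without replicate 2, the library at 103 FPKM, it stood at 0.50 (adjusted p = 0.212). Of 13 lists of cell type markers, 3 also had sums that did not overlap between WM and control cells at 24 hr. The sum of 7 markers of border-associated macrophages, of which 1 of the 6 tested was called lower, was 21.8 to 45.3 FPKM in WM and 62.8 to 81.3 in control libraries, that of endothelial cells 1.51 to 7.19 and 7.57 to 12.7, and that of ependyma and choroid plexus 10.2 to 31.9 and 35.1 to 51.7. The sums of microglia and monocyte markers overlapped (20522 to 27618 against 16358 to 25596, and 139 to 687 against 437 to 557). In WM cells 1 of 15 microglia markers was called lower, 1 of 7 monocyte markers higher and 1 of 2 tested endothelial markers lower, beside 3.97% of all genes called. The part of these cells in the level of Irf1 or Irf8 was not tested. Irf7 at 0 hr was higher in WM repopulating cells by 0.89 (SE 0.40, 95% interval 0.06 to 1.72, adjusted p = 0.365), with 11.8 to 16.98 FPKM against 3.75 to 13.7. Without replicate 2 of control microglia, the library at 3.75, it stood at 0.49 (adjusted p = 0.770). At 0 hr the sums of 4 of the 13 lists did not overlap, lower in WM cells for astrocytes and endothelial cells and higher for neuroblasts and for ependyma and choroid plexus (278 to 714 against 72.8 to 217), while those of monocytes did (125 to 393 against 103 to 330.5), and their part in the level of Irf7 was not tested. At 24 hr Irf8 was 0.49 higher (SE 0.23, 95% interval 0.021 to 0.96, adjusted p = 0.258), and 0.14 higher without replicate 4 of control microglia (adjusted p = 0.742).

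**Figure D3:**
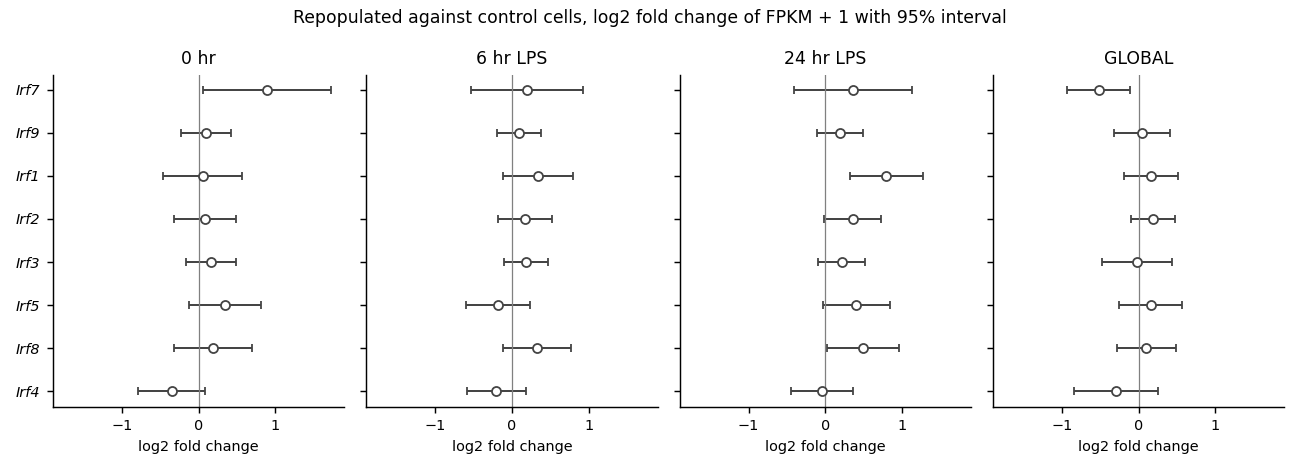
Difference of each IRF gene between repopulated and control cells as log2 fold change of FPKM + 1 with its 95% interval, for WM repopulating cells at 0, 6 and 24 hr after LPS and for GLOBAL repopulation. In this fit, without a replicate block, no member has an adjusted p under 0.05, and the intervals of Irf1 and Irf8 at 24 hr and of Irf7 at 0 hr and in GLOBAL repopulation lie on a single side of 0.

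In the GLOBAL experiment 0 of 8 members were called between repopulated and control cells, where limma called 0% of 16651 genes (1504 genes, and Irf7 among the members, had an unadjusted p under 0.05). Irf7 was lower after GLOBAL repopulation, with 10.9, 9.71 and 8.67 FPKM against 11.6, 12.7, 18.4 and 15.9 in controls and no overlap between the groups (log2 fold change -0.52, SE 0.19, adjusted p = 0.473). Of all genes tested, 9.96% did not overlap either. The sum of monocyte markers was 99.7 to 315 in the repopulated and 168 to 944 in the control libraries, and that of neutrophil markers 1287 to 4670 and 2164 to 23205, and the sums of border-associated macrophages (18.3 to 31.7 and 32.1 to 55.0), of lymphocytes and NK cells (18.7 to 25.2 and 35.3 to 44.3) and of astrocytes (22.99 to 27.3 and 28.0 to 30.2) did not overlap. The part of these cells in the level of Irf7 was not tested. Irf5 (211 ± 3.74, n = 3, against 194 ± 55.2, n = 4) and Irf8 (141 ± 10.8 against 133 ± 31.5) were the highest members, as in the cells of the LPS experiment at 0 hr, where Irf8 came first. The tables were normalized separately, so levels are set side by side and not compared.

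In SVZ tissue, Irf5 and Irf8 were lower with the inhibitor and at 5 day recovery than in control tissue. Of all genes, 1.26% were called at 14 day PLX3397 and 1.27% at 5 day recovery, and in that fit none of the other 5 listed members was called in either. The FPKM of Irf5 was 2.26, 3.20, 2.58, 2.81 and 3.12 in control tissue, 0.186, 0.118, 0.284, 0.525 and 0.607 at 14 day PLX3397, and 0.855, 1.27, 0.336, 0.821 and 0.795 at 5 day recovery. That of Irf8 was 2.90, 2.40, 2.65, 2.99 and 4.46 in control tissue, 0.393, 0.133, 0.515, 0.407 and 0.577 at 14 day PLX3397, and 0.657, 0.300, 0.811, 1.13 and 0.582 at 5 day recovery. All control libraries were above all libraries of the other groups. Of all genes tested, 2.77% did not overlap between control and 14 day PLX3397, and 3.10% between control and 5 day recovery. In the fit of every listed gene, Irf5 fell by 1.505 (SE 0.14, limma adjusted p = 1.29e-06) at 14 day PLX3397 and by 1.08 (SE 0.14, adjusted p = 9.5e-05) at 5 day recovery, and Irf8 fell by 1.53 (SE 0.14, adjusted p = 2.24e-06) and by 1.26 (SE 0.14, adjusted p = 2.95e-05), on the log2 scale of FPKM + 1.

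The sum of the 15 microglia markers was between 303 and 417 FPKM in control tissue, 16.4 and 20.1 at 14 day PLX3397 and 30.4 and 41.5 at 5 day recovery, and 7 of 8 markers fell in both comparisons with control, apart from 6 that passed the limit for testing mainly through control libraries. As a share of this sum, Irf8 was 0.640 to 1.07% in control tissue, 0.814 to 3.07% at 14 day PLX3397 and 0.733 to 2.73% at 5 day recovery. Irf5 was 0.648 to 0.854%, 0.722 to 3.23% and 1.104 to 3.09%. These ranges overlapped between control and treated tissue for both members but for Irf5 at 5 day recovery, and the low groups rest on few reads, from 3 for Irf5 and from 4 for Irf8. Other cell types also differed. The sum of ependyma and choroid plexus markers was 20.1 to 21249 FPKM in control tissue, with a median of 39.5. That of erythrocyte markers was 32.4 to 79.3 in control tissue, 41.8 to 57.9 at 14 day PLX3397 and 91.3 to 336 at 5 day recovery. The part of these cells in the levels of the members was not tested.

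Between 14 day PLX3397 and 5 day recovery, 0 of 7 members were called (0.325% of all genes; 2 members, Irf5 and Irf7, had an unadjusted p under 0.05 in limma). Irf5 was higher at recovery by 0.43 (SE 0.14, adjusted p = 0.198), and Irf7 was lower, at -0.34 (SE 0.14, adjusted p = 0.251). Irf7 was higher at 14 day PLX3397 than in control tissue, with 3.23, 2.23, 2.30, 1.74 and 3.12 FPKM against 1.74, 1.18, 0.897, 1.48 and 1.53. The lowest treated library lay just above the highest control library, and the difference of 0.57 (SE 0.14, adjusted p = 0.0563) did not pass the test. It passed in the fit of every listed gene (adjusted p = 0.0448), and without replicate 1 of control or replicate 4 of 14 day PLX3397 (adjusted p = 0.0425 and 0.0202). The sum of astrocyte markers was also higher at 14 day PLX3397 (456 to 533 FPKM) than in control tissue (358 to 400). That sum was 488 to 661 at 5 day recovery, and the part of astrocytes in the level of Irf7 was not tested. Irf3 was the highest member in SVZ tissue, at 14.2 ± 1.72, 13.4 ± 1.198 and 14.2 ± 3.01 FPKM in the 3 groups (n = 5 each), and was above all other members in every library of each group.

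**Figure D4:**
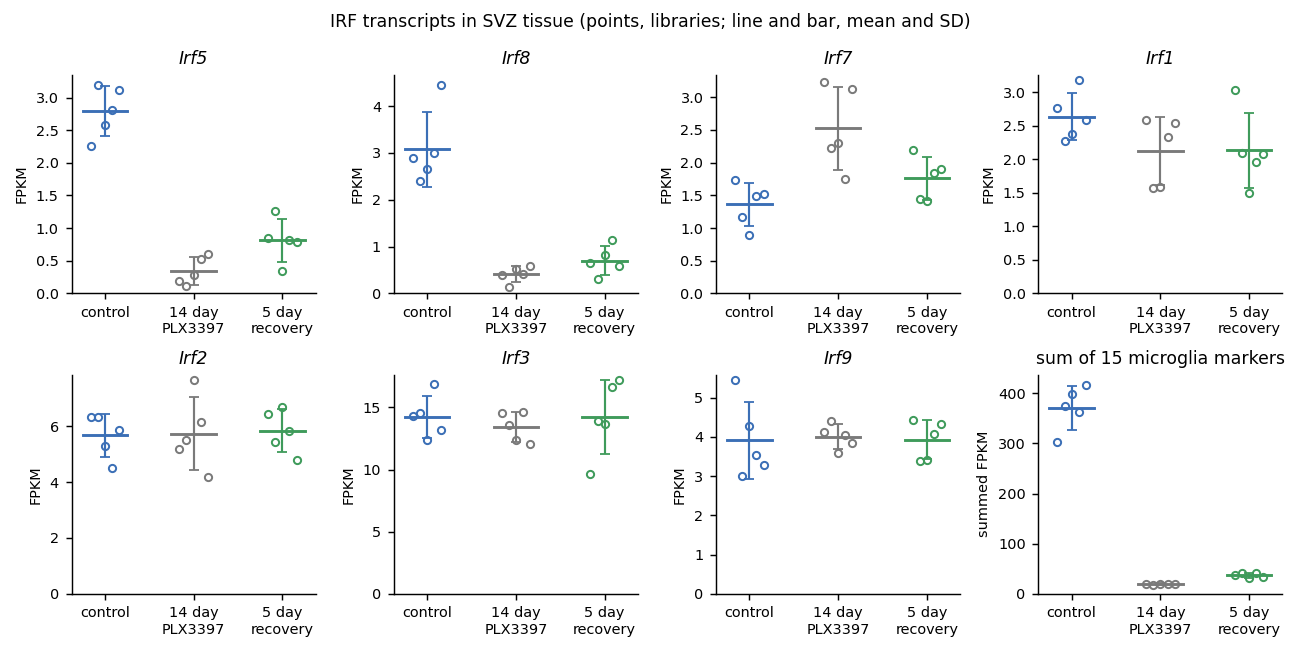
FPKM of the 7 IRF genes listed in SVZ tissue in each group's libraries, with points for libraries and the mean and SD, and in the last panel the summed FPKM of 15 microglia markers. Irf5 and Irf8 fall with the markers, whereas the group means of Irf3 lie between 13.4 and 14.2.

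The genes downstream of the IRFs were read from lists of known targets. Of 23 targets of ISGF3, 23 rose at 6 hr in control microglia and 23 in WM repopulating cells, with a median log2 fold change of 2.90 and 2.89, against 0.012 and -0.0047 over all genes, of which 42.5% and 38.8% were called in either direction. The summed FPKM of the 7 monocyte markers rose beside them, from between 103 and 330.5 at 0 hr to between 1239 and 2388 at 6 hr in control microglia and from between 125 and 393 to between 1226 and 3338 in WM repopulating cells, and the part of these cells in the level of the targets was not tested. Isg15, a ubiquitin-like modifier, went from 8.30 ± 3.59 (n = 3) to 234 ± 62.7 FPKM (n = 5) in control microglia (log2 fold change 4.68, limma adjusted p = 7.75e-10) and from 8.67 ± 4.37 to 239.8 ± 79.6 (n = 4 each) in WM repopulating cells (4.77, adjusted p = 5.07e-10). Ifitm3, which blocks the entry of viruses, rose by 3.57 and 3.29 on the log2 scale, Oas1a, a synthetase that activates RNase L, by 3.70 in control microglia, and the receptor transporter Rtp4 by 3.05 in WM repopulating cells. At 24 hr 20 and 19 of the targets were still raised (21.3% and 18.8% of all genes called), and from 6 to 24 hr 15 fell in control microglia and 12 in WM repopulating cells (28.3% and 15.7%). In SVZ tissue limma called 0 of 11 targets, Ddx58 left out as one that passed the limit for testing mainly through a single group, at 14 day PLX3397 or at 5 day recovery, where 1.26% and 1.27% of all genes were called, so nothing is read from this count.

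Of 16 targets of IRF1 and interferon-gamma, 10 rose at 6 hr in control microglia and 11 in WM repopulating cells, beside 42.5% and 38.8% of all genes called in either direction, with medians of 1.39 and 1.29. Gbp2 (3.47 in both) and Gbp7 (1.77 and 1.89), guanylate-binding proteins, and Nlrc5 (1.57 and 1.78), a transactivator of MHC class I genes, had the lowest adjusted p. At 24 hr, beside 21.3% and 18.8% of all genes called, 3 of them were raised in control microglia, and 5 were raised and 1 lowered in WM repopulating cells. The gene lowered was Ciita, the transactivator of MHC class II genes (from 2.43 ± 1.24 to 0.379 ± 0.091 FPKM, n = 4 each; log2 fold change -1.26, adjusted p = 0.00129). Irf1 itself was not called at either time.

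**Figure D5:**
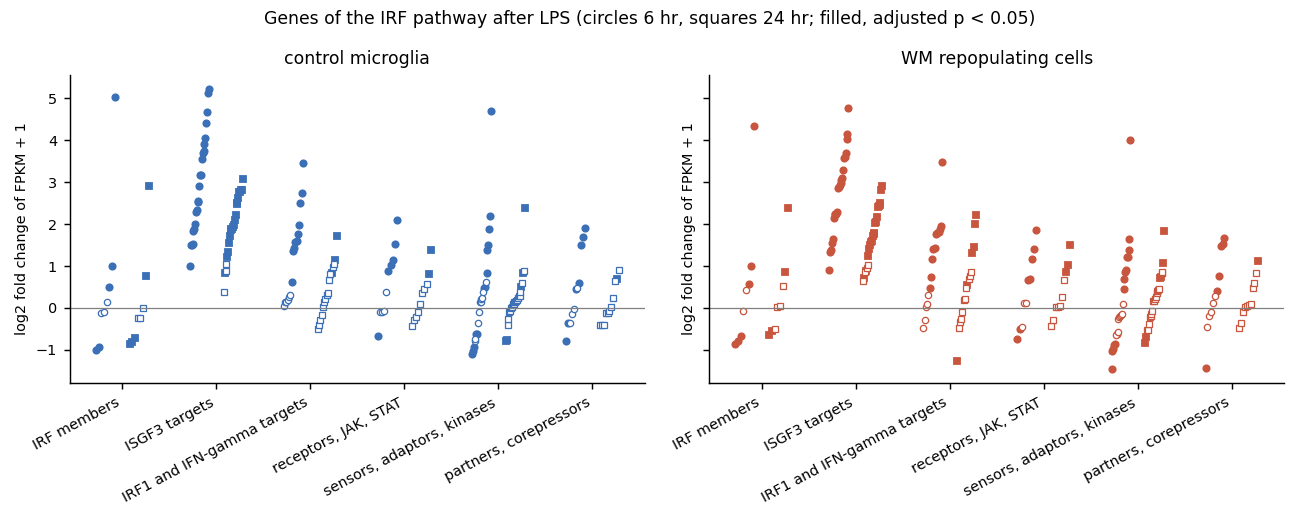
Log2 fold change against 0 hr of each gene in the IRF family and in 5 lists around it, in control microglia (left) and WM repopulating cells (right), with circles for 6 hr, squares for 24 hr and filled symbols for an adjusted p under 0.05. All 23 ISGF3 targets lie above 0 at 6 hr, whereas the lists of receptors, sensors and partners hold genes on both sides of 0.

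Upstream of the IRFs, the lists held genes that rose and genes that fell. Their counts at 6 hr stand beside 42.5% of all genes called in control microglia and 38.8% in WM repopulating cells, in both directions together, and nothing particular to the lists is read from them. Of 10 receptors, JAK kinases and STAT factors, 5 rose and 1 fell at 6 hr in control microglia and 5 rose and 2 fell in WM repopulating cells. Stat2, the partner of IRF9, rose from 7.67 ± 0.405 (n = 3) to 37.5 ± 10.1 FPKM (n = 5) in control microglia (2.10, limma adjusted p = 1.21e-07) and from 11.4 ± 1.96 to 43.6 ± 1.30 (n = 4 each) in WM repopulating cells (1.86, adjusted p = 5.79e-07). Stat3 rose by 1.52 and 1.41, and Jak1 by 0.88 in control microglia.

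Of 23 sensors, adaptors and kinases that activate IRF3, IRF5 and IRF7, 8 rose and 5 fell at 6 hr in control microglia, and 9 rose and 6 fell in WM repopulating cells. Ikbke, the inducible kinase IKK-epsilon that phosphorylates IRF3 and IRF7, went from 0.795 ± 0.526 (n = 3) to 47.0 ± 17.6 FPKM (n = 5) in control microglia (4.70, limma adjusted p = 8.37e-10) and from 1.02 ± 0.420 to 32.6 ± 11.5 (n = 4 each) in WM repopulating cells (4.01, adjusted p = 6.59e-09). Ddx58, the RNA sensor RIG-I, which is also on the list of ISGF3 targets, rose by 1.51 and 1.39, and the adaptor Myd88 by 1.39 in control microglia. Slc15a4, a lysosomal transporter needed for the signal from endosomal receptors to IRF5, fell in WM repopulating cells from 40.4 ± 2.58 to 14.4 ± 3.98 FPKM (-1.46, adjusted p = 2.36e-06).

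Of 11 partners and corepressors, 5 rose and 2 fell in control microglia and 5 rose and 1 fell in WM repopulating cells at 6 hr. These counts also stand beside 42.5% and 38.8% of all genes called in either direction. Etv6, an ETS repressor of interferon-stimulated genes, rose by 1.70 and 1.52, Irf2bp2, a corepressor that binds IRF2, by 0.61 and 0.77, and Batf by 1.92 in control microglia, whereas Batf3, a partner of IRF8, fell by 1.44 in WM repopulating cells. Of 6 interferon genes on the list, only Ifng was listed in the LPS experiment, and its mean went from 1.28 ± 0.809 to 11.2 ± 7.23 FPKM at 6 hr in WM repopulating cells (n = 4 each; 2.31, limma adjusted p = 0.000245). In control microglia it was 1.35 ± 1.17 (n = 3) at 0 hr and 3.98 ± 2.57 (n = 5) at 6 hr (1.03, adjusted p = 0.0778), which did not pass the test. A call in a single kind of cell does not show that the responses differed, and the interaction of Ifng is not given here. In SVZ tissue Spi1, the gene of PU.1, fell with Irf5 and Irf8, from 5.95 ± 0.640 to 0.0772 ± 0.0759 FPKM at 14 day PLX3397 (n = 5 each), and stood at 0.856 ± 0.260 at 5 day recovery. Like these members, Spi1 passed the limit for testing mainly through control libraries, and in the fit of every listed gene the change at 14 day PLX3397 was -2.69 (limma adjusted p = 1.47e-11) and that from there to 5 day recovery 0.78 (adjusted p = 0.00172).

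The genes whose log2 FPKM followed each member most closely over the 24 libraries of the LPS experiment differed between members. For Irf7 these were Zbp1 (Pearson r = 0.973), Ifitm3 (0.972) and Cfb (0.968), and for Irf9 Usp18 (0.964), Oasl2 (0.960) and Ms4a6c (0.949). For Irf8 they were Lyl1 (0.963), Pla2g15 (0.947) and Tsc22d4 (0.941), for Irf5 Frmd8 (0.913) and Tap2 (0.900), for Irf2 Notch4 (0.881), Tsc22d3 (0.868) and Bmf (0.840), and for Irf4 Whrn (0.855), Zfp260 (0.852) and Rdm1 (0.850). Irf1 (at most 0.748, with Pik3ip1) and Irf3 (at most 0.768, with Tor2a) had no gene as close. The libraries share 6 groups and their depth, so these values describe the pattern over time and cell origin and carry no test. The depth recovered from the steps of the FPKM values was 5.24 to 10.4 M reads a library in the LPS experiment, 4.57 to 10.6 M in SVZ tissue and 2.21 to 5.37 M in the GLOBAL experiment.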

How the data were processed

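RNA-seq was read in 46 libraries of 3 experiments. According to the authors' methods, RNA was made into libraries with Smart-seq2, reads were aligned with STAR and counted with featureCounts; the submitters' processing notes name mm10, and the labels describe another library protocol. The authors deposited FPKM values, normalized in a table for each experiment, so comparisons were made within a table. Depth was recovered from the steps of low FPKM values and is an estimate, and counting error at low levels is not modelled.

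FPKM values were tested as log2(FPKM + 1) with limma 3.58.1 (R 4.3.3; lmFit and eBayes with a variance trend, two-sided), with all groups of a table in a fit and genes with an FPKM of at least 1 in at least 3 libraries. P-values were adjusted by Benjamini-Hochberg over all genes tested and called under 0.05. Fold changes on this scale understate changes of low genes. Intervals are 95% intervals of the same fit. The script was tested on simulated data. Labels do not tie replicates to single animals, so p-values measure the spread between these libraries. No libraries held identical values.

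The members, the gene lists and the tests were chosen with earlier results of these data known. All 8 members are named, and from each list described the 3 genes with the lowest adjusted p in a comparison, and for likeness the 3 genes with the highest r. Some genes that these rules name are not reported here. Ciita and the members named with an unadjusted p follow from these rules or their counts. Alternatives were the pseudocount, the filter, the scaling, the variance trend, the groups in the fit, each library left out and a replicate block. Protein sequences were not used here.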

Additional observations from a re-analysis of the deposited data

Results flagged for a closer look

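Of 69 groups of 4 to 10 libraries tested for a value that stands apart from its group, 3 did so, where chance gives about 1 in 20. Irf8 was 4.46 FPKM in SVZ control replicate 5, against 2.40 to 2.99 in the other control libraries. Irf3 was 71.7 FPKM in replicate 1 of WM repopulating cells at 24 hr, against 62.5 to 63.9 in the others. Irf5 was 276 FPKM in GLOBAL control replicate 4, against 161 to 176 in the others.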

How the results depend on the processing

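Irf4 in sorted cells and Irf5 and Irf8 in SVZ tissue are left out of the counts here. Of the other 21 called member results, 0 changed sign in the alternatives run, 15 stayed past the threshold in all of them and 6 missed it in some, 5 of these in a setting other than leaving out a library. Of 86 uncalled results, 31 changed sign and 4 passed the threshold in some setting. With an FPKM of at least 1 asked of 0.5 of the libraries, Irf5 and Irf8 were no longer tested in SVZ tissue. At 14 day PLX3397 in SVZ tissue 1 member, Irf7, was called with no filter (1.49%), 1 with quantile normalization (1.23%), 1 without the variance trend (1.24%) and 1 with the replicate block (1.17%), each beside the share of all genes called. With only the groups compared in the fit, 2 members, Irf7 and Irf9, were called in control microglia from 0 to 24 hr (17.5%). From 6 to 24 hr in WM repopulating cells, 1 member, Irf7, was called with quantile normalization (15.9%), 1 without the variance trend (15.1%) and 1 with the replicate block (15%). Leaving out each library in turn, the members called ranged from 0 to 1 at 14 day PLX3397 in SVZ tissue (1.04 to 1.16% of all genes), from 2 to 4 in control microglia at 24 hr against 0 hr (15.2 to 19.6%), from 1 to 2 in WM repopulating cells from 6 to 24 hr (11.1 to 14.5%), and from 0 to 1 between WM and control cells at 24 hr (2.30 to 3.46%). The uncalled change of Irf5 in control microglia at 6 hr ranged from -0.25 to 0.0097 without a library, and that of Irf8 from 6 to 24 hr from -0.053 to 0.46. The cause of these changes was not tested, apart from the genes no longer tested.

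The labels do not say whether replicate numbers pair the samples. Libraries with the same number correlated above 0.1 in 7 of 55 pairs in the LPS experiment, 5 of 15 in SVZ tissue and 2 of 3 in GLOBAL. Libraries with different numbers did so in 18 of 184, 14 of 60 and 0 of 9 pairs. In the LPS experiment the median r was -0.0011 for the same number and -0.0037 for different numbers, so no pairing was seen there. With the replicate block, 1 member, Irf1, was called between WM and control cells at 24 hr (3.6% of all genes), and Irf5 in control microglia at 6 hr stood at 0.0067. Depth limits Irf4 in sorted cells and Irf5 and Irf8 in treated SVZ tissue, where values rest on few reads.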
